A study of Mus musculus with 18 samples.

Results

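The 35 genes described here belong to the cell's answer to low oxygen and to glycolysis, the pathway that breaks glucose down to pyruvate and lactate. They were chosen by name, and 34 of the 35 had a probe set annotated to 1 gene among the 19938 genes measured in mouse mammary tumours. The hypoxia class holds 17 genes, all measured: 5 listed with the oxygen-sensing pathway and 12 listed as its targets. Kdm3a, itself a target, was listed among the 5. The glycolysis class holds 18 genes, of which 17 were measured, and Gpi1 had no probe set annotated to it alone. Ero1l is printed under its current symbol, Ero1a.

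When oxygen is scarce, the prolyl hydroxylases encoded by the Egln genes no longer mark the HIF alpha subunits for destruction, and the stabilised subunits bind DNA and raise transcription of their targets. These targets include the angiogenic factor Vegfa, the mitophagy receptor Bnip3, the carbonic anhydrase Car9 and most enzymes of glycolysis. Solid tumours often outgrow their blood supply, and tumours driven by ERBB2 are also known for high glucose use.

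The tumours came from crosses of FVB/N-Tg(MMTVneu)202Mul/J mice, in which the MMTV promoter drives the ErbB2 gene in mammary epithelium, with B6;129S1-Snai2tm2Grid/J mice, which lack Snai2 in every tissue. All carried the transgene, and the labels describe each as an ERBB2-positive luminal tumour. Mice with intact Snai2 (WT) all had metastasis and were parous (4 tumours) or nulliparous (4 tumours). Mice lacking Snai2 (KO) were parous with metastasis (3 arrays), parous without metastasis (3), nulliparous with metastasis (1) or nulliparous without metastasis (3). No WT mouse lacked metastasis, so genotype and metastasis are partly confounded, and the sources used here give no ages.

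Replicates 2 and 3 of the parous KO mice with metastasis stood apart as a near-identical pair. The SD of their difference was 0.102 over 10252 genes, against 0.285 for the next closest of 153 pairs. Their mean was therefore used as 1 tumour, which left 17. Array medians lay between 7.60 and 7.67 on the log2 scale, and an array gives no read depth, so the number of tumours limits the precision. The mean log2 value of 16 luminal epithelium markers lay between 10.62 and 11.19 in every tumour. Nulliparous WT replicate 1 stood apart in 20 skeletal muscle markers, with a mean of 10.59 against 6.93 to 9.14 in the other tumours, and nulliparous WT replicate 2 stood apart in the hypoxia and glycolysis genes themselves. These are bulk samples, in which fewer cells of a type and less RNA per cell cannot be told apart.

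The HIF complex binds the core letters ACGTG or GCGTG, so the stretches upstream of the members were read for these letters on both strands. RefSeq promoters of the GRCm38.p6 build, each of 300 bases with 250 before and 50 after a transcript start, were found for 31 of the 34 members. At least 1 of the letter runs stood in a promoter of 28 of the 31 (90.3%), against 52.3% of 17491 protein-coding genes. ACGTG alone stood in a promoter of 22 of the 31 (71.0%), against 23.2% of protein-coding genes. Counted per promoter, it stood in 24 of the members' 42 promoters (57.1%), against 19.6% of all 32851 promoters. That background covers all 27025 genes with a promoter, not only protein-coding ones, so it differs from the one used per gene. Members had 42 promoters over 31 genes, against 21262 over 17491 protein-coding genes, and the part of this in the shares per gene was not tested. Per gene, ACGTG stood in a promoter of 73.3% of the 15 hypoxia members and 68.8% of the 16 glycolysis members. Both letter runs hold a CG pair, and promoters of members were richer in such pairs, with a median of 22 per 300 bases over their 42 promoters against 13 over promoters of protein-coding genes. The part of base composition in these shares was not tested, and a match of letters is not a binding site.

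The 250 bases before the start are printed for 7 members whose values in each WT tumour are given below. Every match to the core letters, on either strand, is in capitals. Hif1a encodes the alpha subunit HIF-1α, P4ha1 and Bnip3 are targets outside glycolysis, and Pgk1, Pgam1, Eno2 and Ldha encode enzymes.
Hif1a, chr12:73907617-73907866, plus strand: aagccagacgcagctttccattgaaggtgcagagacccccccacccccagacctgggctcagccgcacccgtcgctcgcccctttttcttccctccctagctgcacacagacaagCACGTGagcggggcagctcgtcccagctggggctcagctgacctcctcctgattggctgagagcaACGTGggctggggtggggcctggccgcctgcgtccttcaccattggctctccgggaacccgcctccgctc
P4ha1, chr10:59323046-59323295, plus strand: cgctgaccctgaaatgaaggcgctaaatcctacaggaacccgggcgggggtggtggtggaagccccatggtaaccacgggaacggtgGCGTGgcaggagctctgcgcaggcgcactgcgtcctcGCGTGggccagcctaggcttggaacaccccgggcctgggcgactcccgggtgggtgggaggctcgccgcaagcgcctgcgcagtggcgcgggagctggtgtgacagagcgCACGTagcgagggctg
Bnip3, chr7:138909507-138909756, minus strand: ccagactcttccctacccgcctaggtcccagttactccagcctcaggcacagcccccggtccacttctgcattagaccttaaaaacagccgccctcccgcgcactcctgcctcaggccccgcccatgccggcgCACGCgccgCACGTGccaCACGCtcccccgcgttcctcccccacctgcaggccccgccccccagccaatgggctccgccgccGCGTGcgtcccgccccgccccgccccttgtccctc
Pgk1, chrX:106186850-106187099, plus strand: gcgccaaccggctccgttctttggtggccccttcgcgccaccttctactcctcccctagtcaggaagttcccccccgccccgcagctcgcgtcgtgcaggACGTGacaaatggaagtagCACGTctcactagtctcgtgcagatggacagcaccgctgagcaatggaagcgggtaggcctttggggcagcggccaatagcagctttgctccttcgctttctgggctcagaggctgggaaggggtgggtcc
Pgam1, chr19:41911621-41911870, plus strand: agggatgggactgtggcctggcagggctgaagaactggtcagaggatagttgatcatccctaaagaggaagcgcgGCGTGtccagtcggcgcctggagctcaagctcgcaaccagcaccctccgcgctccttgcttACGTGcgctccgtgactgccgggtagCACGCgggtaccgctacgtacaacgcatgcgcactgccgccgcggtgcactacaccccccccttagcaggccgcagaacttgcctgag
Eno2, chr6:124769674-124769923, minus strand: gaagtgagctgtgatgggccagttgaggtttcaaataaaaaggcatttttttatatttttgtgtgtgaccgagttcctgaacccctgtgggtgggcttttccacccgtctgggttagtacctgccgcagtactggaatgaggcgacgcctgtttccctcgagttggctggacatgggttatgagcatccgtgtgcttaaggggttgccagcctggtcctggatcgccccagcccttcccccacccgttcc
Ldha, chr7:46845554-46845803, plus strand: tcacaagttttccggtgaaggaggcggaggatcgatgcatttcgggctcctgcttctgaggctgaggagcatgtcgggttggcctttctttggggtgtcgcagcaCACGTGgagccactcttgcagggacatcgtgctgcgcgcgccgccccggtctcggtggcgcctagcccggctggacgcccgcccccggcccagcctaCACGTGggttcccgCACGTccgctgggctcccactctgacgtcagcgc
In the printed stretches Bnip3 and Ldha each held 5 matches, Hif1a, P4ha1 and Pgam1 each held 3, Pgk1 held 2 and Eno2 held 0. Ldha had 2 promoters, both with a match, and the stretch printed is from the promoter that held ACGTG. Overlapping matches on opposite strands, as in CACGTG, count separately. The values of all 7 follow below.

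Across the 17 tumours, hypoxia members varied more within groups than most genes. The median within-group SD was 0.44 over the 17 hypoxia members and 0.30 over the 17 glycolysis members, against 0.15 over all 19938 genes. Of the hypoxia members 11 lay above the 90th percentile of all genes in this SD, and of the glycolysis members 5 did. Hypoxia members averaged from 7.54 (P4ha2) to 13.03 (Egln3), against a median of 8.1 over all genes. The SDs were not matched for level. The widest ranges over 17 tumours were those of Car9, from 8.33 to 11.35, and Adm, which encodes the vasodilator adrenomedullin, from 8.18 to 11.18. Pfkfb3, which makes the activator of phosphofructokinase, ran from 7.92 to 10.74. At the other end, Hk1, the hexokinase of most tissues, ran from 13.23 to 13.57, and Ldha, lactate dehydrogenase A, from 13.40 to 13.90. Both were among the brightest genes, at level percentiles of 99.8 and 99.9, and the part of that level in their narrow ranges was not tested. RMA compresses dim probe sets, so the narrow ranges of Slc2a3 (6.70 to 7.24) and Pfkfb4 (6.69 to 7.23) are those of dim signals.

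**Figure D1:**
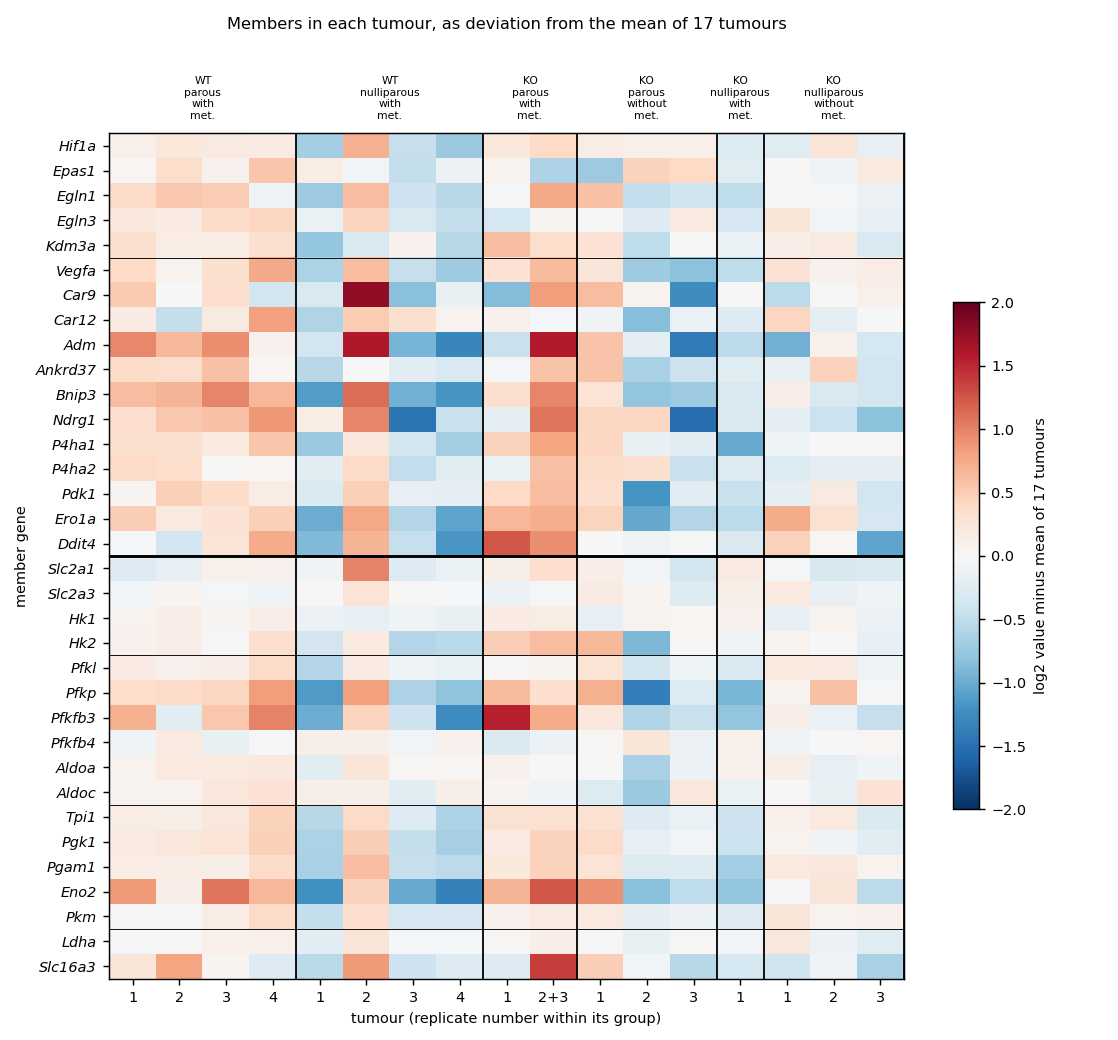
Each row is 1 of the 34 members and each column 1 of the 17 tumours, ordered by group. Colour gives the log2 value minus the gene's mean over the 17 tumours, and the thick line separates hypoxia members (above) from glycolysis members (below). Nulliparous WT replicate 2 is red in most rows, while the other 3 nulliparous WT tumours are blue in most.

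Single tumours ordered alike by both classes. The mean over hypoxia members was highest in nulliparous WT replicate 2 (11.26) and in the averaged parous KO replicates 2 and 3 with metastasis (11.25), and both also ranked first and second by the glycolysis mean (11.56 and 11.54). The 4 parous WT tumours lay within a narrow band, from 10.89 to 11.02 for hypoxia and from 11.31 to 11.49 for glycolysis. They did not form a separate block. Parous KO replicate 1 without metastasis lay inside both bands (10.91 and 11.42). Parous KO replicate 1 with metastasis lay inside the glycolysis band (11.40). The lowest 3 tumours by the hypoxia mean were nulliparous WT replicates 3, 1 and 4, with 10.16, 10.13 and 10.07, and their glycolysis means were 10.86, 10.73 and 10.78. These means describe order among tumours and were not tested.

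Within groups the class means had an SD of 0.36 for hypoxia and 0.25 for glycolysis. Parous WT tumours were the tightest group with over 1 tumour, at 10.97 ± 0.06 (SD, n = 4) for hypoxia, and nulliparous WT tumours the widest, at 10.41 ± 0.57 (SD, n = 4). Parous KO tumours stood at 11.01 ± 0.33 (SD, n = 2) with metastasis and 10.48 ± 0.38 (SD, n = 3) without it. Nulliparous KO tumours without metastasis stood at 10.57 ± 0.15 (SD, n = 3), and the lone nulliparous KO tumour with metastasis at 10.28. In the order of hypoxia group means the step from 10.97 to 10.57 was larger than the within-group SD, and the other steps between neighbours were smaller.

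**Figure D2:**
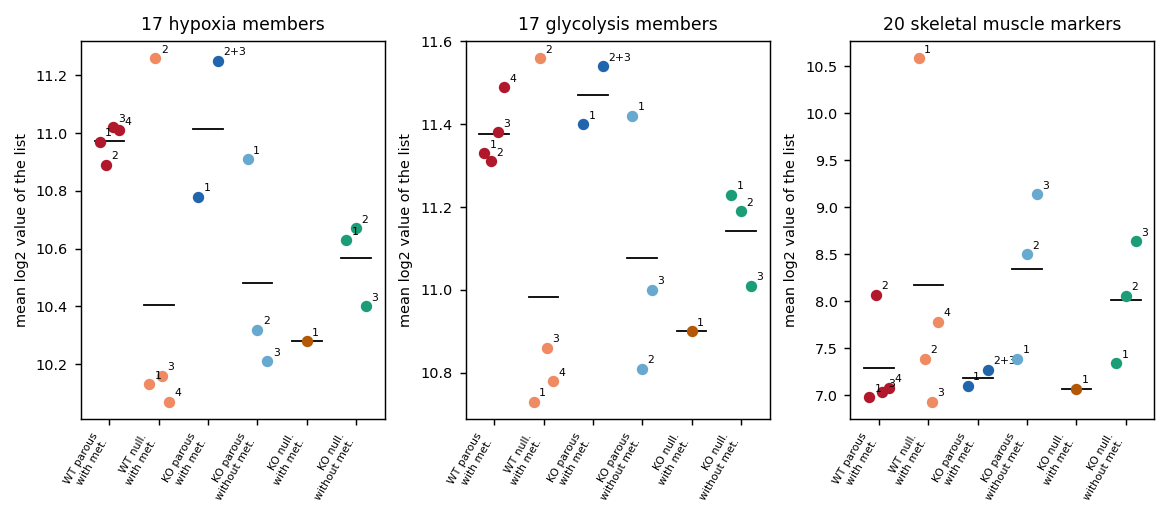
Mean log2 value per tumour of the 17 hypoxia members, the 17 glycolysis members and 20 skeletal muscle markers, with tumours as points (numbers are replicates) and group means as lines; the y axes do not start at 0. Among nulliparous WT tumours replicate 2 reaches 11.26 for hypoxia while the other 3 lie between 10.07 and 10.16, and replicate 1 reaches 10.59 for muscle.

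In WT mice with metastasis, most members had higher values in parous than in nulliparous tumours, but none passed the threshold of a Benjamini-Hochberg adjusted p under 0.05 (limma, 4 tumours against 4). The median log2 difference, parous minus nulliparous, was 0.61 over hypoxia members and 0.33 over glycolysis members, against -0.01 over all genes. Of the hypoxia members 16 of 17 lay above 0, and of the glycolysis members 14 of 17. Below 0 lay 65.9% of genes on chromosome 2, 77.2% on chromosome 4 and 48.6% elsewhere. Of the 34 members 0 rose, where 0.542% of all genes rose, and 0 fell, where 1.86% of all genes fell. At an unadjusted p under 0.05, 13 members were higher (6 hypoxia, 7 glycolysis), where 6.38% of all genes were, and 0 were lower, where 9.81% of all genes were. All 4 parous tumours lay above all 4 nulliparous tumours in 3 of 34 members, Kdm3a, Ankrd37 and Hk1, where 4.98% of all genes showed this.

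Among the oxygen-sensing genes, Hif1a stood at 12.27, 12.38, 12.35 and 12.34 in parous tumours and at 11.49, 12.88, 11.71 and 11.44 in nulliparous tumours, replicates 1 to 4. The parous values sat close together, above 3 nulliparous tumours and below replicate 2, so the groups overlapped. The difference was 0.45 (SE 0.24, adjusted p = 0.400). Kdm3a, a histone demethylase induced by HIF, stood at 11.10, 10.93, 10.93 and 11.10 in parous and 10.00, 10.47, 10.86 and 10.23 in nulliparous tumours. The groups came close, at 10.93 and 10.86, but did not overlap, and the difference was 0.62 (SE 0.19, adjusted p = 0.116). Egln1, the main HIF prolyl hydroxylase, Egln3, a HIF-induced one, and Epas1, which encodes HIF-2α, differed by 0.61, 0.41 and 0.39, with adjusted p between 0.264 and 0.491.

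Among the targets, P4ha1, a subunit of the collagen prolyl hydroxylase, had the smallest p of all members. It stood at 10.55, 10.55, 10.43 and 10.78 in parous tumours and at 9.48, 10.44, 9.87 and 9.54 in nulliparous tumours. Nulliparous replicate 2 reached the lowest parous value and the other 3 lay below all parous tumours. The difference was 0.75, or 1.68-fold (SE 0.19 on the log2 scale, adjusted p = 0.0649).

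Bnip3 showed the same arrangement with wider steps. It stood at 11.74, 11.80, 12.10 and 11.79 in parous tumours and at 10.01, 12.24, 10.16 and 9.94 in nulliparous tumours. Nulliparous replicate 2 was above every parous tumour, and the others lay well below the lowest parous value. The difference was 1.27 (SE 0.43, adjusted p = 0.150), and a second Bnip3 probe set gave 1.11.

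Vegfa stood at 12.24, 11.90, 12.16 and 12.59 in parous and 11.20, 12.46, 11.37 and 11.12 in nulliparous tumours. Nulliparous replicate 2 again lay among the parous values, and the difference was 0.69 (SE 0.29, adjusted p = 0.262). Other targets with differences over 0.5 were Ankrd37 (0.60 ± 0.26 SE), the oxidoreductase gene Ero1a (0.82 ± 0.39 SE), the mTORC1 inhibitor gene Ddit4 (0.60 ± 0.39 SE), Ndrg1 (0.78 ± 0.51 SE) and Adm (0.91 ± 0.62 SE). Smaller ones were those of P4ha2 (0.33), of Pdk1, the kinase that inhibits pyruvate dehydrogenase (0.30), and of the carbonic anhydrase gene Car12 (0.10). All had adjusted p of 0.261 or more.

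Car9, often used as a tissue marker of hypoxia, did not follow them. It stood at 10.10, 9.57, 9.90 and 9.21 in parous tumours and at 9.26, 11.35, 8.74 and 9.43 in nulliparous tumours. Nulliparous replicate 2 was the highest and replicate 3 the lowest of the 8, and the difference was -0.003 (SE 0.55, adjusted p = 0.999).

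**Figure D3:**
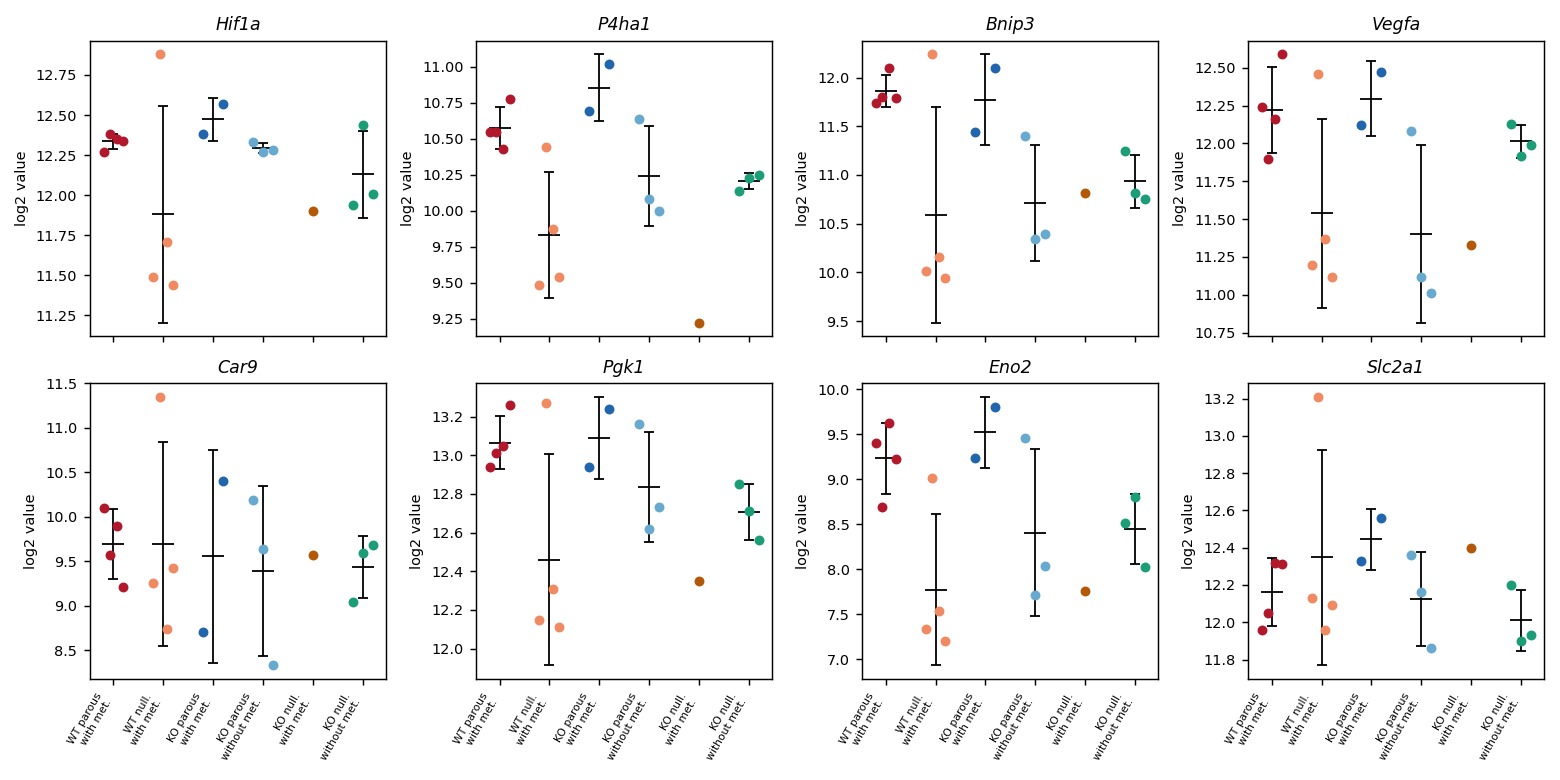
Log2 values of 8 members in each tumour (points) by group, with the group mean and SD as a line and bar where a group has over 1 tumour; y axes do not start at 0. In Hif1a, Bnip3 and Pgk1 the 4 parous WT tumours sit together while nulliparous WT tumours split into 1 high and 3 low values.

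At glucose entry the members did not move alike. The transporter gene Slc2a1 (GLUT1) stood at 11.96, 12.05, 12.32 and 12.31 in parous and 12.13, 13.21, 11.96 and 12.09 in nulliparous WT tumours. Nulliparous replicate 2 was the highest of the 17 tumours, and the remaining 7 WT tumours overlapped. The difference was -0.19 (SE 0.23, adjusted p = 0.766). The transporter gene Slc2a3 (GLUT3) stood at 6.90, 7.02, 6.92 and 6.87 in parous and 6.96, 7.24, 6.99 and 6.92 in nulliparous tumours, with overlapping groups and a difference of -0.11 (SE 0.10, adjusted p = 0.701).

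Hk1 stood at 13.47, 13.54, 13.46 and 13.54 in parous and 13.28, 13.23, 13.31 and 13.25 in nulliparous WT tumours. The groups did not overlap, and the small difference of 0.23, or 1.18-fold, had the second smallest p of the members (SE 0.06, adjusted p = 0.0778). A second Hk1 probe set gave 0.20, but over the 18 arrays it followed the first hardly at all (r = 0.09). Hk2, the inducible hexokinase, differed by 0.45 (SE 0.26, adjusted p = 0.430).

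In the upper pathway, Pfkfb3 differed by 1.07 (SE 0.36, adjusted p = 0.152). It stood at 9.90, 8.96, 9.72 and 10.18 in parous and 8.19, 9.63, 8.77 and 7.92 in nulliparous tumours, so parous replicate 2 lay among the nulliparous values. The phosphofructokinase genes Pfkp and Pfkl differed by 0.94 (SE 0.43) and 0.36 (SE 0.16), and the aldolase genes Aldoa and Aldoc by 0.15 and 0.13. Pfkfb4, a second enzyme of the Pfkfb3 family, stood at 6.89, 7.16, 6.84 and 6.94 in parous and 7.10, 7.10, 6.93 and 7.06 in nulliparous tumours, with overlapping groups and a difference of -0.09 (SE 0.09, adjusted p = 0.692).

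In the lower pathway all 5 members lay above 0. Eno2, the enolase first known from neurons, stood at 9.40, 8.69, 9.62 and 9.22 in parous and 7.34, 9.02, 7.54 and 7.20 in nulliparous tumours. Only nulliparous replicate 2 reached the parous range. The difference of 1.46, or 2.74-fold, was the largest of the 34 members (SE 0.43, adjusted p = 0.0995).

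Pgk1, phosphoglycerate kinase, stood at 12.94, 13.01, 13.05 and 13.26 in parous and 12.15, 13.27, 12.31 and 12.11 in nulliparous tumours. Nulliparous replicate 2 was level with the highest parous tumour and the other 3 lay below all parous tumours, with a difference of 0.60 (SE 0.22, adjusted p = 0.177).

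Pgam1, phosphoglycerate mutase, stood at 12.17, 12.17, 12.14 and 12.38 in parous and 11.36, 12.64, 11.56 and 11.49 in nulliparous tumours. Nulliparous replicate 2 was above every parous tumour and the other 3 below them all, with a difference of 0.45 (SE 0.23, adjusted p = 0.357). Tpi1, triose phosphate isomerase, and Pkm, pyruvate kinase, differed by 0.50 and 0.33, with adjusted p of 0.218 and 0.321. At lactate, Ldha stood at 13.60, 13.66, 13.74 and 13.75 in parous and 13.43, 13.90, 13.61 and 13.62 in nulliparous tumours. Its groups overlapped and the difference was 0.05 (SE 0.11, adjusted p = 0.885), while that of the lactate exporter gene Slc16a3 was 0.29 (SE 0.39, adjusted p = 0.789).

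**Figure D4:**
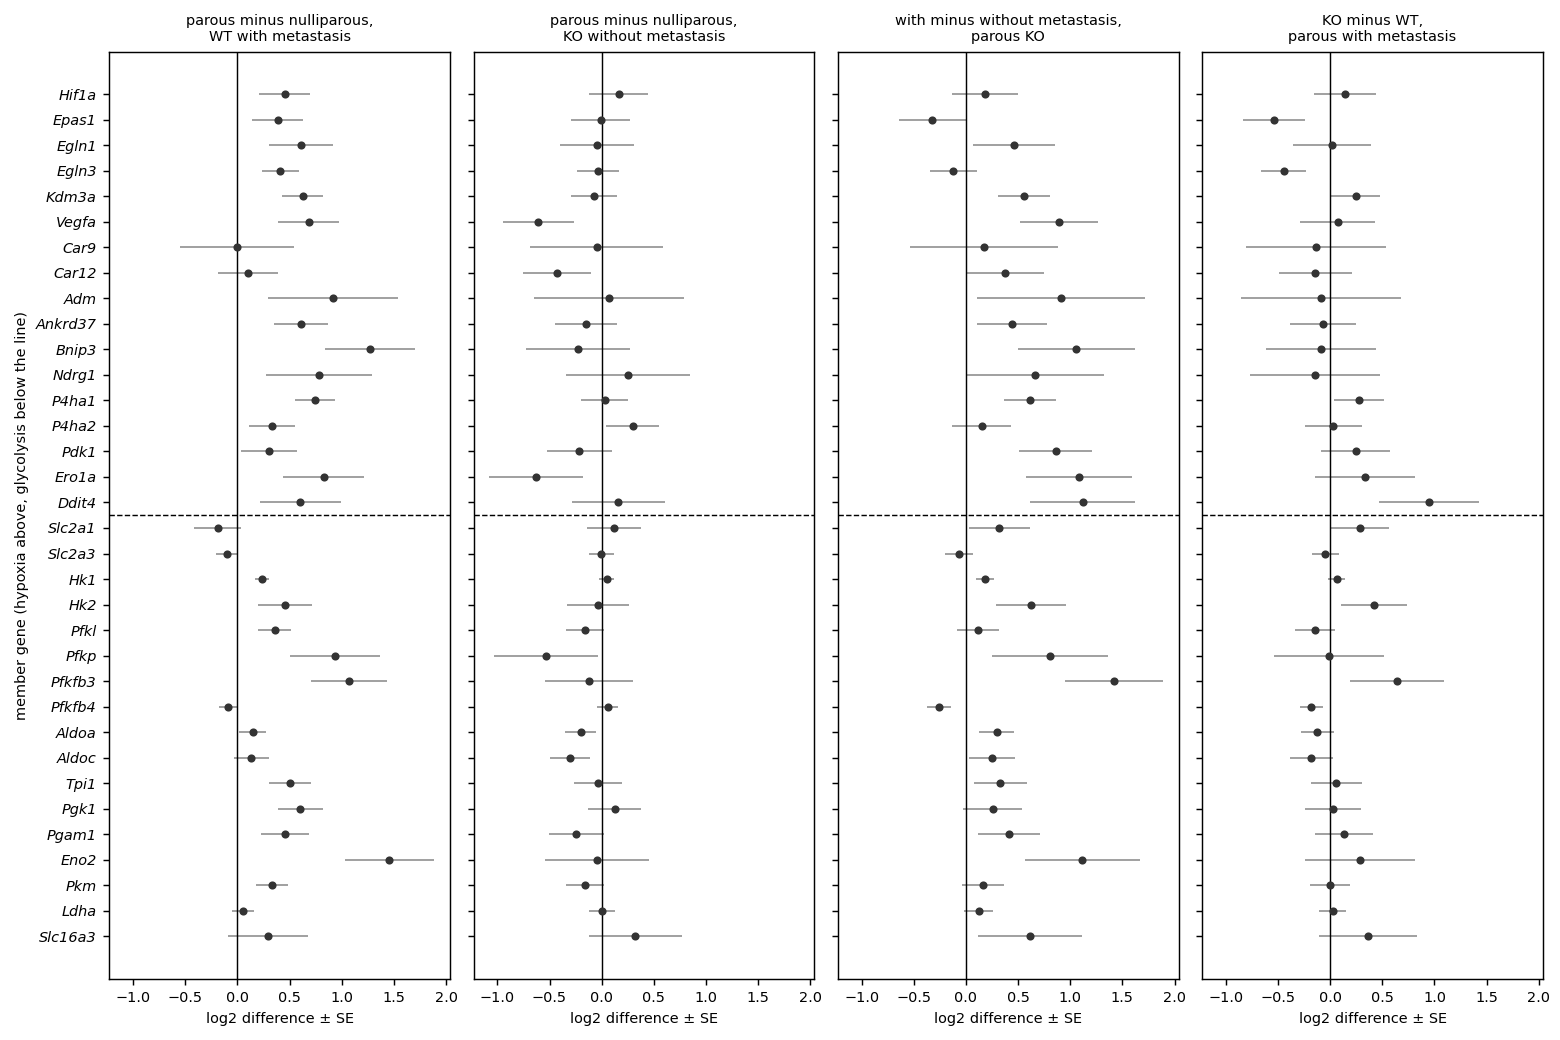
Log2 difference of each of the 34 members with its standard error in 4 comparisons, from limma; hypoxia members are above the dashed line and glycolysis members below it. In WT mice most points lie to the right of 0, with medians of 0.61 and 0.33, while no point in any panel passed the threshold.

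These counts turned on nulliparous WT replicate 2. It was the highest of the 4 nulliparous WT tumours in 29 of 34 members, where it was so in 29.6% of all genes. It lay above all 4 parous WT tumours in 17 of 34 members, where it did so in 28.5% of all genes. It was the highest of all 17 tumours in 12 members, a count not made over all genes. Its value exceeded the mean of the other 3 by a median of 1.19 over hypoxia members and 0.72 over glycolysis members, against 0.01 over all genes. Without it, 11 of 34 members rose in parous WT tumours, where 0.542% of all genes rose, and 0 fell, where 1.66% of all genes fell. The 11 were Bnip3 (1.82, SE 0.24, adjusted p = 0.00546), Hif1a (0.79), Pgk1 (0.88), P4ha1 (0.95), Pgam1 (0.75), Eno2 (1.87), Tpi1 (0.72), Pkm (0.51), Pfkfb3 (1.40), Vegfa (0.99) and Egln3 (0.60). This tumour is the one with high values in these genes, so the count without it is not independent support for a difference by parity. Without this tumour the medians were 0.79 over hypoxia members and 0.51 over glycolysis members, against 0.61 and 0.33 with it. Leaving out any other single tumour gave 0 or 1 members.

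Lists of markers for other cell types shifted between the same tumours. With all 8 WT tumours the median difference was -0.83 over 20 skeletal muscle markers (20 below 0), -0.57 over 13 macrophage markers (13 below 0) and -0.63 over 12 fibroblast markers (12 below 0), none of which passed. It was -0.34 over 14 T and NK cell markers (14 below 0) and -0.40 over 14 adipocyte markers (13 below 0). The cytotoxic granule gene Nkg7 fell by 1.49 (adjusted p = 0.0385), the NK cell receptor gene Ncr1 by 0.40 (adjusted p = 0.042) and Lipe, hormone-sensitive lipase, by 0.70 (adjusted p = 0.0274), where 1.86% of all genes fell. These 3 are named because they passed. Over 14 endothelial markers it was -0.22 (13 below 0). It was 0.01 over 16 luminal epithelium markers, 0.04 over 12 neutrophil markers, -0.06 over 4 red blood cell markers and -0.02 over 13 proliferation genes. The muscle list mean ran from 6.98 to 8.07 in parous and from 6.93 to 10.59 in nulliparous WT tumours. Without nulliparous replicate 1 the muscle median was -0.05, 0 members passed, and the medians of the members were 0.48 for hypoxia and 0.24 for glycolysis. With the muscle mean as a covariate they were 0.45 and 0.22. The macrophage list mean ran from 8.95 to 9.98 in parous and 9.58 to 10.00 in nulliparous tumours, and the fibroblast one from 8.08 to 10.11 and from 9.47 to 10.38. The T and NK cell mean ran from 6.33 to 6.45 in parous and from 6.50 to 7.48 in nulliparous tumours, without overlap, and the adipocyte mean from 7.39 to 8.20 and from 7.89 to 8.95. The part of these 4 lists and of the endothelial list in the result was not tested.

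Car9 and Slc2a1, 2 of the 4 members at or below 0, lie on chromosome 4. Over the 1154 genes of that chromosome the median difference in this comparison was -0.23, with 77.2% below 0. Pdk1 and Pfkfb3 lie on chromosome 2, where 1732 genes had a median of -0.05. The genes elsewhere had a median of 0.004, and the part of the chromosome in the values of these members was not tested.

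The other genes of the pathway were mixed. Of 13 other regulators of HIF 10 lay above 0, with a median of 0.06, and of 36 other hypoxia targets 19, with a median of 0.12. Of 16 other glycolysis genes 5 lay above 0, and of 16 genes of pyruvate entry and gluconeogenesis 7. None of these 81 genes passed in either direction. Those of smallest p were Ppp1r3c, a glycogen-targeting subunit of protein phosphatase 1 (1.53, SE 0.41, adjusted p = 0.0741), Ldhb, lactate dehydrogenase B (0.74, SE 0.20, adjusted p = 0.0771), Ep300, a coactivator of HIF (0.34, SE 0.10, adjusted p = 0.0813), and, on the other side, the lipid droplet gene Plin2 (-0.93, SE 0.26, adjusted p = 0.0828).

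Parity was also compared in mice lacking Snai2 and metastasis (3 parous against 3 nulliparous tumours), with medians of -0.04 over hypoxia members and -0.04 over glycolysis members, against 0.01 over all genes. Both medians depended on single tumours: with 1 left out at a time they ran from -0.39 to 0.08 and from -0.28 to 0.02, each lowest without parous replicate 1, and the hypoxia one was highest without parous replicate 2. Of 34 members 0 passed in either direction, as did 0% of all genes. At an unadjusted p under 0.05, 0 members were higher, where 1.73% of all genes were, and 0 were lower, where 1.56% were. Vegfa had the smallest p among lower members. It stood at 12.08, 11.12 and 11.01 in parous and 12.13, 11.92 and 11.99 in nulliparous tumours, so parous replicate 1 lay among the nulliparous values (difference -0.61, SE 0.34, adjusted p = 1). Ero1a stood at 12.91, 11.45 and 11.89 in parous and 13.22, 12.78 and 12.13 in nulliparous tumours, with overlapping groups (difference -0.63, SE 0.45). Of the markers of other cell types, 18 of 20 for muscle (median 0.34) and 11 of 13 for macrophages (0.23) lay above 0. So did 13 of 14 for endothelium (0.20). Below 0 lay 49.3% of genes on chromosome 2, 49.1% on chromosome 4 and 47% elsewhere. The mean of 12 neutrophil markers ran from 6.67 to 7.38 in parous and from 6.36 to 7.11 in nulliparous tumours, with overlap. The part of these lists in the members' values was not tested.

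Parous replicate 1 was the highest of its group in both genes. Aldoc, an aldolase first known from brain, stood at 13.44, 12.97 and 13.94 in parous and 13.70, 13.56 and 14.00 in nulliparous tumours (difference -0.30, SE 0.20), with parous replicate 3 among the nulliparous values. On the higher side were P4ha2, with 7.90, 7.86 and 7.09 in parous and 7.26, 7.35 and 7.34 in nulliparous tumours (0.30, SE 0.25), and Slc16a3, with 9.28, 8.73 and 8.23 against 8.40, 8.72 and 8.15 (0.32, SE 0.45). Both groups overlapped in each. Hk1 stood at 13.23, 13.47 and 13.44 in parous and 13.23, 13.47 and 13.29 in nulliparous tumours, a difference of 0.05 (SE 0.07) whose sign turned to -0.05 with the mean of its probe sets and to -0.002 without nulliparous replicate 1.

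Whether parity differed between these settings was tested as the KO difference without metastasis minus the WT difference with metastasis. The medians were -0.53 over hypoxia members, with 17 of 17 below 0, and -0.48 over glycolysis members, with 13 of 17 below 0, against 0.02 over all genes. The share of all genes on each side of 0 is not given here. Of 34 members 0 passed, as did 0% of all genes in each direction. At an unadjusted p under 0.05, 7 members were lower (5 hypoxia, 2 glycolysis), where 3.89% of all genes were, and 0 were higher, where 5.75% were. Vegfa (-1.29, SE 0.45, adjusted p = 0.397), Ero1a (-1.45, SE 0.60, adjusted p = 0.459) and P4ha1 (-0.71, SE 0.30, adjusted p = 0.464) had the smallest p. The hypoxia median was -0.87 without parous KO replicate 1, and the glycolysis median was -0.23 without parous KO replicate 2 (both without metastasis). Markers of other cell types lay on the opposite side: 19 of 20 for muscle (median 1.22), 13 of 13 for macrophages (0.80), 12 of 12 for fibroblasts (0.53), 14 of 14 for T and NK cells (0.43), 14 of 14 for endothelium (0.41) and 13 of 14 for adipocytes (0.34) were above 0. None of these markers passed, and their part in the members' values was not tested. On the higher side Pfkfb4 stood at 0.15, Slc2a1 at 0.30 and Slc2a3 at 0.10. This difference shares the WT tumours with the comparison above and changes metastasis status together with genotype, so the genotype and metastasis status cannot be told apart in it.

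Among parous KO mice, tumours of mice with metastasis (2 tumours) were set against those without it (3). The medians were 0.55 over hypoxia members and 0.29 over glycolysis members, against -0.04 over all genes, with 15 of 17 above 0 in each class. Of 34 members 0 passed in either direction, as did 0% of all genes. At an unadjusted p under 0.05, 7 members were higher (5 hypoxia, 2 glycolysis), where 1.59% of all genes were, and 1 was lower, Pfkfb4, where 2.44% were.

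Pfkfb3 stood at 10.74 and 9.92 with metastasis and at 9.41, 8.58 and 8.74 without it. The groups did not overlap, and the difference was 1.42, or 2.68-fold (SE 0.47, adjusted p = 0.967). How many of all genes showed no overlap between these groups was not counted, so lack of overlap is a description only. Pdk1 stood at 10.79 and 11.00 against 10.73, 9.20 and 10.18, and P4ha1 at 10.69 and 11.02 against 10.64, 10.08 and 10.00. In both genes the groups did not overlap but came close, since replicate 1 without metastasis was close to the tumours with it (differences 0.86, SE 0.35, and 0.61, SE 0.25). On the lower side were Pfkfb4, with 6.69 and 6.87 against 7.00, 7.23 and 6.87 (-0.26, SE 0.11), Epas1, with 9.91 and 9.22 against 9.11, 10.30 and 10.25 (-0.32, SE 0.32), and Egln3, with 12.68 and 13.08 against 13.02, 12.78 and 13.21 (-0.12, SE 0.23). The groups overlapped in Epas1 and Egln3 and met at 6.87 in Pfkfb4.

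The hypoxia median in this comparison rested on the averaged tumour: without the averaged replicates 2 and 3 it was 0.15, with 1 tumour left in that group and assumed to vary like the others. Without replicate 1 with metastasis it was 0.87. Markers of several other cell types lay lower in the tumours with metastasis, none of them past the test. The muscle list mean was 7.10 and 7.27 in tumours with metastasis and 7.39, 8.50 and 9.14 in those without it, and 20 of 20 markers lay below 0 with a median of -1.01. So did 12 of 12 fibroblast markers (median -0.38), 13 of 14 endothelial markers (-0.35) and 10 of 13 macrophage markers (-0.21). Also below 0 were 13 of 14 T and NK cell markers (-0.08) and 11 of 13 proliferation genes (-0.18). Of genes on chromosome 2 50.9% lay below 0, on chromosome 4 73.3% and elsewhere 61.3% (medians -0.002, -0.086 and -0.036). The fibroblast mean was 9.19 in both tumours with metastasis and ran from 9.09 to 10.42 in the others. The endothelial mean was 8.41 with metastasis and ran from 8.47 to 9.46 without it. The neutrophil mean ran from 6.56 to 6.79 with metastasis and from 6.67 to 7.38 without it, with overlap. The part of these lists was not tested. With the muscle mean as a covariate the medians of the members were 0.32 and 0.19. Of 36 other hypoxia targets 23 lay above 0 (median 0.21), and 0 of the 81 other pathway genes passed. Mxi1, a HIF-induced antagonist of Myc, stood at 0.74 (SE 0.28) and Higd1a, a mitochondrial protein induced by hypoxia, at 1.14 (SE 0.53), both with adjusted p = 0.967.

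KO and WT tumours were compared among parous mice with metastasis (2 tumours against 4). The medians, KO minus WT, were 0.02 over hypoxia members and 0.03 over glycolysis members, against -0.03 over all genes. The hypoxia median was -0.20 without the averaged KO tumour and 0.35 without KO replicate 1, and the glycolysis one ran from -0.03 to 0.09 with 1 tumour left out at a time. Of the other cell types' markers, 14 of 14 for endothelium (median -0.26) and 14 of 14 for T and NK cells (-0.13) lay below 0. So did 17 of 20 for muscle (-0.14), beside 50.5% of genes on chromosome 2, 61.3% on chromosome 4 and 58.9% elsewhere. The part of these markers was not tested. Of 34 members 0 passed in either direction, as did 0% of all genes. At an unadjusted p under 0.05, 0 members were higher, where 2.89% of all genes were, and 0 were lower, where 2.83% were.

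Ddit4 stood at 11.35 and 11.04 in KO and at 10.07, 9.73, 10.36 and 10.85 in WT tumours. Both KO tumours lay above all WT tumours, and the difference was 0.95 (SE 0.48, adjusted p = 0.891). The share of all genes without overlap between these groups was not counted, so lack of overlap here is a description only. Pfkfb3 (0.64, SE 0.45) and Hk2 (0.42, SE 0.32) followed; Hk2 stood at 10.08 and 10.21 in KO and 9.67, 9.73, 9.59 and 9.91 in WT tumours, without overlap, while Pfkfb3 overlapped.

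On the lower side Egln3 stood at 12.68 and 13.08 in KO and 13.24, 13.20, 13.40 and 13.45 in WT tumours, again without overlap (-0.44, SE 0.22, adjusted p = 0.874). Epas1 stood at 9.91 and 9.22 against 9.88, 10.20, 9.93 and 10.40 (-0.54, SE 0.30), and Pfkfb4 at 6.69 and 6.87 against 6.89, 7.16, 6.84 and 6.94 (-0.18, SE 0.11), each with overlapping groups.

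With genotype, parity and metastasis status fitted together over all tumours, the genotype medians were 0.001 for hypoxia and 0.01 for glycolysis, against -0.03 over all genes. With 1 tumour left out at a time they ran from -0.16 to 0.16 and from -0.05 to 0.13, and 20 of 20 muscle markers lay below 0 (median -0.48). The share of all genes below 0 is not given here. Again 0 members passed, as did 0% of all genes, and at an unadjusted p under 0.05 members numbered 0 on both sides, where 1.76% of all genes were higher and 2.68% lower. The same 6 genes except Pfkfb3 headed both directions, with Hk1 in its place: Hk1 (0.13), Ddit4 (0.69), Hk2 (0.39), Egln3 (-0.33), Epas1 (-0.36) and Pfkfb4 (-0.11), all with adjusted p = 0.999. These values share tumours with the contrast among parous mice.

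How members followed each other within groups was asked with Pgk1 as the guide, by adding its value as a covariate to the 6 group means. Of the other 33 members 8 rose with Pgk1 at an adjusted p under 0.05, where 0.11% of 19937 genes did, and 0 fell with it, where 0.0251% of genes did. The 8 were 4 hypoxia genes and 4 glycolysis genes. The steepest were Bnip3, with a slope of 1.92 log2 units per log2 unit of Pgk1 (SE 0.17, adjusted p = 0.000684), Ero1a (1.65, SE 0.22) and Vegfa (1.25, SE 0.15). The enzymes Pgam1 (1.02, SE 0.08, adjusted p = 0.000477), Tpi1 (0.84, SE 0.11) and Pkm (0.67, SE 0.08) rose with it, as did Slc2a1 (0.94, SE 0.13) and P4ha1 (0.80, SE 0.12). The median slope was 0.95 over hypoxia members and 0.75 over the other 16 glycolysis members, against 0.03 over all genes. Some marker lists of other cell types ran the other way. Their median slopes were -1.42 over 20 muscle, -0.60 over 13 macrophage, -0.27 over 14 adipocyte and -0.19 over 14 T and NK cell markers. Other lists did not, with medians of 0.16 over 14 endothelial, 0.15 over 12 fibroblast, 0.10 over 12 neutrophil and 0.09 over 4 red blood cell markers. The median was 0.30 over 13 proliferation genes and -0.05 over 16 luminal epithelium markers. Of all these markers 0 passed. The muscle slope was larger in size than that of either class.

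The KO tumours give the values beside these slopes. Pgk1 stood at 12.94 and 13.24 in parous tumours with metastasis, at 13.16, 12.62 and 12.73 in those without it, at 12.85, 12.71 and 12.56 in nulliparous tumours without metastasis and at 12.35 in the nulliparous tumour with it. Bnip3 stood at 11.44 and 12.10, at 11.40, 10.34 and 10.39, at 11.25, 10.81 and 10.75, and at 10.82 in the same order. In each KO group with over 1 tumour the same tumour was highest in both genes.

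All 8 calls rested on nulliparous WT replicate 2. Without that tumour 0 of 33 members and 0 genes passed, without nulliparous WT replicate 4 there were 4 members, and with the muscle list mean as a further covariate 2. Pgk1 and Pgam1 each had 3 probe sets in the annotation, which followed each other closely (r of at least 0.99 over the 18 arrays). Whether any of these probe sets also reads processed gene copies is not known here.

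Hk1 (-0.09) and Epas1 (-0.33) were the members with negative slopes, and Aldoc (0.06) and Pfkfb4 (0.01) lay close to 0. Among genes that are not members, the smallest p were those of Higd1a (1.76, SE 0.21), Efna3, an ephrin ligand (2.05, SE 0.26), Fam162a, a mitochondrial protein induced by hypoxia (1.38, SE 0.18), and, falling with rising Pgk1, Bcl2l14 (-0.96, SE 0.12) and Cd46, a complement regulator (-0.57, SE 0.08). Of 36 other hypoxia targets 3 passed, Higd1a, Fam162a and the glycogen synthase gene Gys1 (1.02, SE 0.15), and of 16 other glycolysis genes 0.

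**Figure D5:**
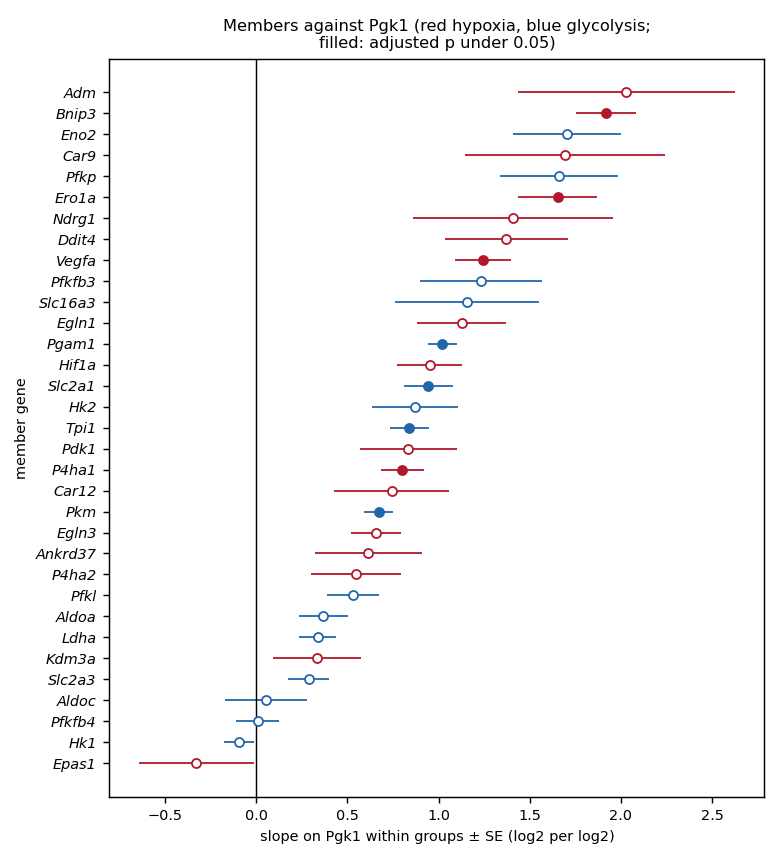
Slope of each of the other 33 members on Pgk1 within groups, with its standard error, in log2 units per log2 unit. Red points are hypoxia members and blue points glycolysis members, filled where the adjusted p is under 0.05; the 8 filled points lie between 0.67 and 1.92.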

How the data were processed

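Total RNA of 18 mammary tumours was hybridised to single-colour Affymetrix whole-transcript arrays. The deposited table holds log2 values per probe set; the authors made them with RMA and the oligo package, per the submitters' processing notes (no version given in the sources used here). Quantile normalization within RMA removes a shift shared by all genes, and its background step compresses dim ones. Of 35556 probe sets, 21789 had 1 gene in the platform annotation, 1621 had several and 12146 had none; the last 2 kinds were left out. The probe set of the highest mean was kept per gene, and 19855 of 19938 genes matched RefSeq genes of GRCm38.p6. That table gave names and chromosomes.

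The near-identical arrays of 1 group were averaged after a check over genes averaging log2 8 or more. Fits of 6 group means, of additive terms and of Pgk1 within groups used limma 3.58.1 under R 4.3.3 (2-sided), adjusted by Benjamini-Hochberg over all genes at 0.05, and were checked on simulated data. By the labels the arrays are biological replicates, and the spread tested is that between tumours. Members and lists were chosen with earlier results of these data known. In the 4 comparisons between pairs of groups no member passed. Values in every tumour compared were given there for the 3 members of smallest p in each direction. Chosen after their values were seen, Hif1a, Kdm3a, Bnip3, Vegfa, Car9, Pfkfb3, Pgk1, Pgam1 and Ldha were given in WT mice, and Pgk1 and Bnip3 also in KO mice. Members that passed in the Pgk1 fit were given by slope, and other members by difference, range or count. In the Pgk1 fit the 5 other genes of smallest p are named. Alternatives were both arrays kept apart, a replicate block, repeated quantile normalization, the dimmest 40% of genes left out, the mean of all probe sets, a trended robust prior, a muscle covariate, another guide gene than Pgk1, and each tumour left out in turn.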

Additional observations from a re-analysis of the deposited data

Results flagged for a closer look

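In groups of 4 tumours, the highest or lowest tumour was compared with its nearest neighbour by Dixon's ratio, for 34 members and both class means in both WT groups. Of 72 such groups 11 held a tumour that stood apart, where chance gives about 1 in 20, and 7 of the 11 were nulliparous WT replicate 2. That tumour stood apart at the top in Bnip3 (12.24), Pdk1 (10.86), Slc2a1 (13.21), Pgk1 (13.27) and Pgam1 (12.64), and in the means over hypoxia members (11.26) and glycolysis members (11.56). The members are not independent of each other within a tumour, so these are not separate signs.

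Among parous WT tumours, replicate 3 was apart at the top in Bnip3 (12.10), and replicate 4 in Pfkp (12.34) and Pgam1 (12.38). Nulliparous WT replicate 3 was apart at the bottom in Aldoc (13.49). Groups of 2 or 3 tumours cannot be tested this way.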

How the results depend on the processing

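In the WT parity comparison 0 members passed, and 1 did with both near-identical arrays kept apart, and 1 with the dimmest 40% of genes left out (P4ha1 each time); with tumours left out in turn the count ran from 0 to 11, the highest without nulliparous WT replicate 2. In the Pgk1 fit 8 members passed, against 5 with a replicate block, 2 with the muscle covariate, 0 with Ankrd37 and 0 with Ldha as the guide, and 0 to 9 with tumours left out in turn. Vegfa was also used as a guide, and its count is not given here. The hypoxia median for metastasis in parous KO ran from 0.15 to 0.87 with tumours left out. Signs turned for 4 members. Hk1 in KO parity was -0.054 with the mean of its probe sets and ran from -0.002 to 0.123 with tumours left out, the lowest without nulliparous replicate 1. Slc2a1 in WT parity ran from -0.319 to 0.099, the highest without nulliparous replicate 2. For metastasis in parous KO, Epas1 was 0.022 and Egln3 -0.32 without the averaged replicates 2 and 3, and Egln3 ran from -0.235 to 0.075 with the others left out, the highest without replicate 1 with metastasis. The causes were not tested. The replicate block changed no other count. Deviations of same-numbered tumours correlated between -0.37 and 0.42 over 31 pairs, of which 10 lay over 0.1. These values do not settle whether replicate numbers pair the tumours. Of 288 alternative class medians 287 moved by less than the within-group SD of the class mean. These SDs, 0.36 for hypoxia and 0.25 for glycolysis, exceeded several of the medians, so a median could change sign and still count. The hypoxia median for genotype in parous mice with metastasis ran from -0.195 to 0.353 with tumours left out. Of 857 alternative values for single members 847 kept their direction and their side of the threshold. With 1 to 4 tumours in a group, differences below the spread between tumours could not be seen, and some above it did not pass. In WT parity P4ha1 differed by 0.745 against a within-group SD of 0.29 (limma, adjusted p = 0.0649). A count of 0 passing members therefore does not exclude differences larger than the spread.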
